A study of Homo sapiens with 8 samples.

Results

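The BCL2 family decides at the mitochondrial outer membrane whether a cell enters apoptosis, and 10 of its genes were followed here in 4 lung cancer cell lines: *BCL2*, *BCL2L1*, *MCL1*, *BAX*, *BAK1*, *BID*, *BBC3*, *PMAIP1*, *BCL2L11* and *BAD*. They were chosen by name, and their 15 probes were found among the 22439 genes that could be named on the array. All 10 had at least 1 probe counted on each of the 8 arrays, so no member was lost to the filter on dim signals.

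Each of the 8 Agilent oligonucleotide arrays was hybridized with RNA of treated cells, labeled with Cy5, and RNA of control cells of the same line, labeled with Cy3. EBC-1 and SK-MES-1, both LUSQ (lung squamous cell carcinoma) lines, were transfected with *miR-150-3p*, the passenger strand of *pre-miR-150*, on 1 array each. SBC-3, derived from small cell lung cancer, was given 1 of 3 siRNAs directed at *DONSON*, a replication fork gene (siDONSON-1, siDONSON-2 and siDONSON-3, 1 array each). A549, a lung adenocarcinoma line, carried a CRISPR/Cas9 edit of *LOXL2*, a lysyl oxidase (A549-GE1, A549-GE2 and A549-GE3). The transfection controls carry 2 names in the labels, mock in the source field and a characteristic that says they were not transfected, and the A549 control was unedited. The labels do not say whether the edited A549 samples are clones or pools. Nor do they say whether the 3 A549 arrays, or the 3 control RNAs of a line, come from separate cultures. In SBC-3 the treated cells received different siRNAs, so their spread includes differences between siRNAs. The p-values measure the spread between these arrays, which may be technical in part. Cells were grown in RPMI or EMEM medium, and the transfections used a lipid reagent.

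*BCL2*, *BCL2L1* (which encodes BCL-XL) and *MCL1* encode anti-apoptotic proteins that bind and hold back the pore-forming effectors *BAX* and *BAK1*. The BH3-only proteins, here BIM (*BCL2L11*), PUMA (*BBC3*), NOXA (*PMAIP1*), *BID* and *BAD*, bind the anti-apoptotic proteins, and some of them also activate the effectors directly. Once *BAX* and *BAK1* open the outer membrane, cytochrome c leaves the mitochondria and *APAF1* and caspase 9 start the caspase cascade. Small cell lung cancer is known for high *BCL2*, and FOXO and p53 are known regulators of *BCL2L11* and of *BBC3* and *PMAIP1*, respectively.

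The upstream sequences of the BH3-only genes *BCL2L11*, *BBC3* and *PMAIP1* are shown because their mRNAs gave the values that the results turn on. They are the 250 bases before the start used in the RefSeq promoter table (GRCh38.p14), which holds 9 of the 10 members and not *MCL1*. For *BBC3* that start lies inside the annotated gene, which reaches chr19:47232860, so that its window overlaps the gene up to that base. *BCL2L11* is read from chr2:111120664-111120913 on the plus strand, *BBC3* from chr19:47232668-47232917 on the minus strand and *PMAIP1* from chr18:59899746-59899995 on the plus strand. Capitals mark the motifs found on either strand.
BCL2L11: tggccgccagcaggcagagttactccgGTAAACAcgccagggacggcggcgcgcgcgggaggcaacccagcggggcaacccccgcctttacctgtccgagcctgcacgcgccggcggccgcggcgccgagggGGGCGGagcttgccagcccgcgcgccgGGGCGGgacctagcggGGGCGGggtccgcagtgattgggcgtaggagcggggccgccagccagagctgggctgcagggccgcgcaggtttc
BBC3: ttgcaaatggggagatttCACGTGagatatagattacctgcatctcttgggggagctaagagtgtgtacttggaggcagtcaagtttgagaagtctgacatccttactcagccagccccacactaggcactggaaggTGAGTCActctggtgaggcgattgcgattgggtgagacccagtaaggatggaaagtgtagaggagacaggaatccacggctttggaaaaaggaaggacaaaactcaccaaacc
PMAIP1: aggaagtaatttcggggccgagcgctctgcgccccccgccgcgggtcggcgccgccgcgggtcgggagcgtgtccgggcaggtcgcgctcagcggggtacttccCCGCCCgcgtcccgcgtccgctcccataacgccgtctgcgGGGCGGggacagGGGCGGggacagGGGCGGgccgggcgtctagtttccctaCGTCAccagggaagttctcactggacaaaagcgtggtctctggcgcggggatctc
The motifs searched were the FOXO element TGTTTAC, the GC box GGGCGG, the E-box CACGTG, the cAMP response motif TGACG and the AP-1 site TGACTCA, and no marked stretch overlaps another. The *BCL2L11* stretch holds the FOXO element, on the reverse strand, from base -223, and 3 GC boxes. The *BBC3* stretch holds an E-box from base -232 and an AP-1 site from base -113. The *PMAIP1* stretch holds 4 GC boxes and a cAMP response motif. Among 35116 such windows of the table, 2.98% hold the FOXO element, 42.6% a GC box, 6.34% the E-box, 21.2% the cAMP response motif and 4.2% the AP-1 site. A match of letters is a description of these windows only.

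The targeted genes were read first. The log2 ratio of treated to control for *DONSON* was -2.15, -1.79 and -2.11 with siDONSON-1, siDONSON-2 and siDONSON-3, and that for *LOXL2* was -2.49, -2.67 and -2.59 in A549-GE1, A549-GE2 and A549-GE3. Among small cell markers, SBC-3 control RNA showed *NEUROD1*, *CHGA* and *SYP* well above background, but not *POU2F3* or *INSM1*, and A549 showed *CHGA*. Of 6 squamous markers, SK-MES-1 showed 3 (*TP63*, *KRT14* and *SOX2*), SBC-3 2 (*TP63* and *SOX2*), and EBC-1 and A549 1 (*SOX2*), with *TP63*, *KRT5*, *KRT6A*, *KRT14* and *DSG3* not well above background in EBC-1. A549 showed 3 of 6 adenocarcinoma markers (*NAPSA*, *KRT7* and *MUC1*), which EBC-1 and SK-MES-1 showed as well, the latter with SFTPC in addition, and SBC-3 showed *KRT7* and *MUC1*. Of the epithelial markers *EPCAM* and *CDH1*, SBC-3 showed neither, SK-MES-1 *EPCAM*, and EBC-1 and A549 both. The blood marker *PTPRC* and the fibroblast marker *COL1A1* were well above background in every line, and the blood marker *CD3E* in EBC-1 and SBC-3. A signal well above background thus does not by itself identify a cell type.

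In edited A549 cells, *BCL2L11* rose under every setting run, and *BCL2* passed the same test on dim signals and in 4 of 10 other settings. No member was called lower in this fit, while *BAX* was called lower in 4 and *PMAIP1* in 2 of 11 other settings. The log2 ratio of *BCL2L11*, which encodes the BH3-only protein BIM, was 1.16, 1.53 and 1.34 in A549-GE1, A549-GE2 and A549-GE3. All 3 arrays lay above the 5 other arrays, where it ran from 0.32 to 0.58. The mean of 1.34 ± 0.18 (SD, n = 3) is a 2.54-fold increase, with a 95% interval of 1.12 to 1.57 on the log2 scale and a limma adjusted p of 0.000765 over all 15531 genes tested. The call covered 2 of 10 members in both directions, beside 14.4% of all genes called either way and 7.58% called higher.

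**Figure D1:**
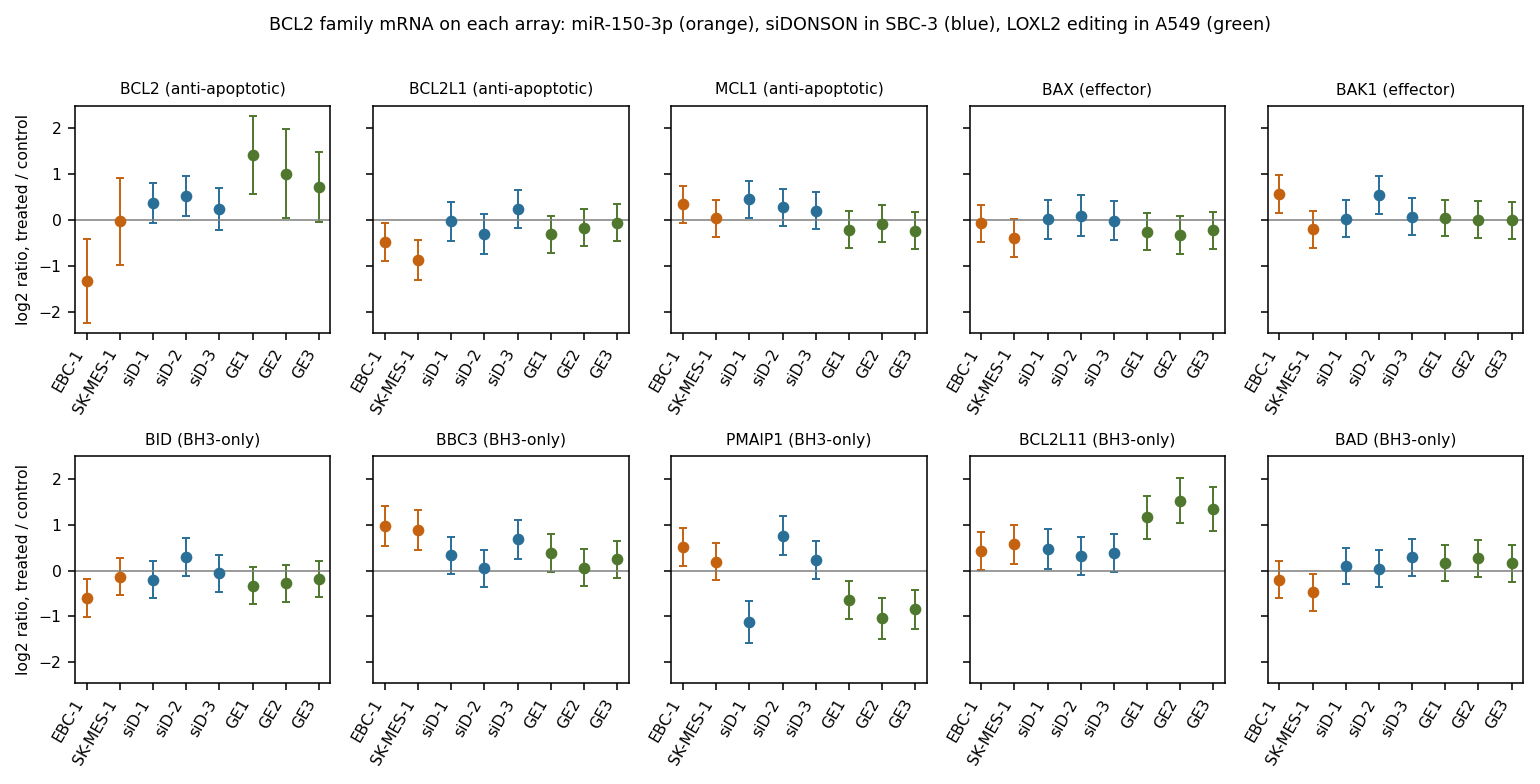
Log2 ratio of treated over control RNA for the 10 genes on each of the 8 arrays (EBC-1 and SK-MES-1 with *miR-150-3p*, siD-1 to siD-3 for the siDONSON arrays of SBC-3, GE1 to GE3 for *LOXL2*-edited A549), with bars for the software's 95% error limits. *BCL2L11* lies at 1.16 to 1.53 in A549, and *PMAIP1* spreads from -1.12 to 0.76 over the siDONSON arrays.

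The 3 probes of *BCL2L11* differed in size and ran in the same order on each A549 array. Probe A_24_P122921 gave 1.77, 2.16 and 1.91, probe A_33_P3398526 gave 1.27, 1.61 and 1.45, and probe A_33_P3251932 gave 0.44, 0.80 and 0.67. When every probe was tested alone, over 29737 probes, all 3 passed, with adjusted p-values of 0.0017, 0.00145 and 0.0327. The gene was called under all 11 other settings run, with means from 0.91 to 1.95.

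For *BCL2* the A549 values rest on dim signals. The gene's log2 ratio was 1.42, 1.01 and 0.73 in A549-GE1, A549-GE2 and A549-GE3, with a mean of 1.05 ± 0.35 (SD, n = 3), a 95% interval of 0.51 to 1.59 and an adjusted p of 0.0246. Its probe A_23_P352266 gave 2.22, 1.83 and 1.498, but the control channel was not well above background on any of the 3 arrays, so that this probe bounds the increase at at least 1.62-fold. The other probe, A_33_P3355185, gave 0.61, 0.19 and -0.04 and was not called alone (mean 0.26, adjusted p = 0.525). The call was lost when any 1 of the 3 arrays was left out (means of 0.87 to 1.22). With normexp background correction and loess normalization, which were changed together, the mean was 0.08 (limma adjusted p = 0.185). That correction adds an offset of 50 to both channels, which pulls ratios of dim signals towards 0. For *BCL2* in A549 this setting therefore cannot decide whether the gene rose.

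**Figure D2:**
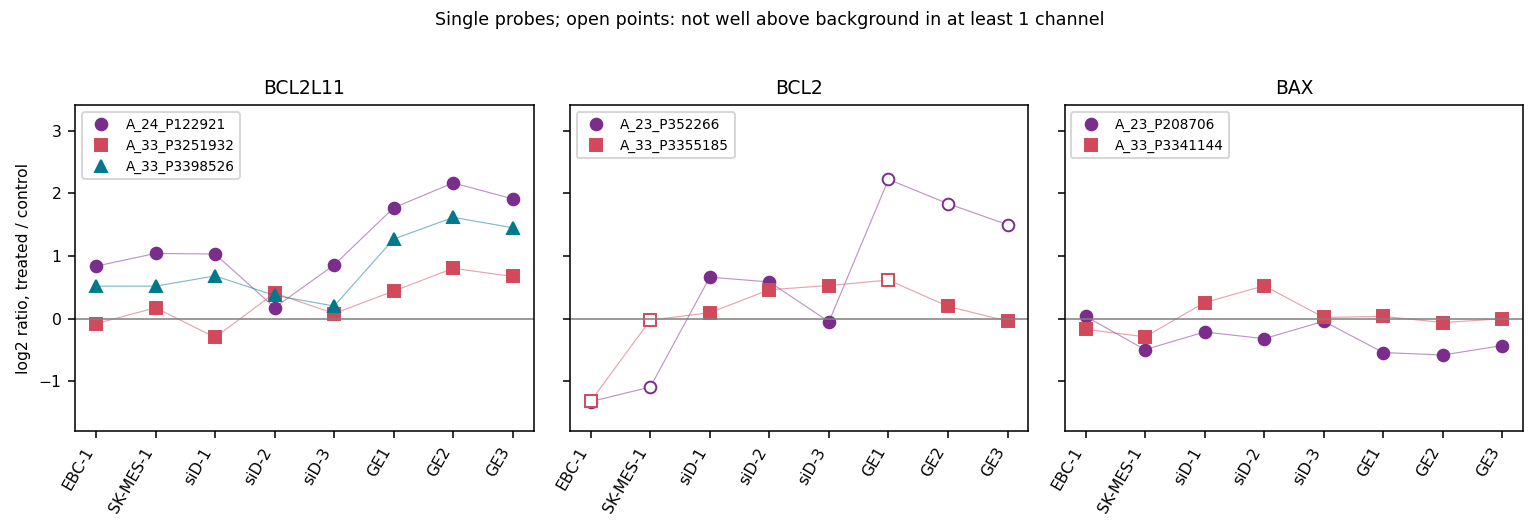
Log2 ratio of each probe of *BCL2L11*, *BCL2* and *BAX* on the 8 arrays, with open points where at least 1 channel was not well above background. The 3 *BCL2L11* probes are all above 0 in A549, the 2 *BCL2* probes part there, with open points for A_23_P352266 on all 3 arrays, and of the 2 *BAX* probes only A_23_P208706 lies at -0.43 to -0.58.

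The other A549 values did not pass the threshold in this fit, and 4 of them did in some other setting. *PMAIP1*, which encodes NOXA, a BH3-only protein that binds mainly *MCL1*, gave -0.63, -1.04 and -0.85. All 3 exceeded the software's 95% error limits, while the mean of -0.84 had a 95% interval of -1.55 to -0.13 and an adjusted p of 0.106. It was called lower with normexp and loess (mean -0.58, adjusted p = 0.0381) and from the 3 A549 arrays alone (adjusted p = 0.0131). *PMAIP1* also had the widest spread of the members between the siDONSON arrays, and all groups share one estimate of the spread.

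*BAX* gave -0.25, -0.32 and -0.22 in A549, with an adjusted p of 0.0961 for the mean of -0.26. It was called lower with normexp and loess (adjusted p = 0.0107), with the brightest probe (0.0262), with 4 groups by line (0.0487) and from the 3 A549 arrays alone (0.0241). Its probes disagreed. A_23_P208706, spotted 10 times on the array, gave -0.54, -0.58 and -0.43 and passed alone (mean -0.52, adjusted p = 0.0343). A_33_P3341144 gave values from -0.06 to 0.04 (mean -0.01, adjusted p = 0.965). The other effector, *BAK1*, gave 0.04, 0.01 and -0.01 (95% interval of the mean -0.36 to 0.39).

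*BID*, a BH3-only protein activated by caspase 8 cleavage, gave -0.33, -0.28 and -0.19 (adjusted p = 0.207). *BAD*, a BH3-only partner of *BCL2* and BCL-XL, gave 0.17, 0.26 and 0.15 (adjusted p = 0.209), and *BBC3* gave 0.39, 0.06 and 0.24 (adjusted p = 0.271). *BCL2L1* gave -0.31, -0.17 and -0.05 (adjusted p = 0.401) and *MCL1* gave -0.21, -0.07 and -0.23 (adjusted p = 0.285). From the 3 A549 arrays alone, where 5873 genes were called, *BID* (adjusted p = 0.0289) and *BAD* (adjusted p = 0.0453) passed too. The median over the 10 members was -0.08, beside 0.02 over all genes tested.

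In SBC-3 cells that received siRNAs against *DONSON*, limma called 0 of 10 members, beside 7.22% of 14453 genes called in either direction. At an unadjusted limma p under 0.05 there were 3 of 10 (*BCL2L11*, *MCL1* and *BBC3*, above 0 on 3 of 3 arrays). Taken in either direction, the count is near the background of 26.1% of all genes. All 3 were higher, beside 15.1% of all genes, and no test was made of this count. *BCL2L11* gave 0.47, 0.32 and 0.38, with a mean of 0.39 ± 0.08 (SD, n = 3), a 95% interval of 0.16 to 0.61 and an adjusted p of 0.0535. Its 3 probes ran apart, with A_24_P122921 at 1.03, 0.18 and 0.86 and A_33_P3251932 at -0.30, 0.41 and 0.08. The gene passed the threshold in 5 of 11 other settings, in one of which, with the mean of the 5 other arrays subtracted, its direction turned (-0.62), as those 5 arrays include the A549 values.

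*MCL1*, the short-lived anti-apoptotic protein, gave 0.45, 0.28 and 0.21 (mean 0.31, 95% interval 0.09 to 0.54, adjusted p = 0.0949). *BBC3*, which encodes PUMA, gave 0.34, 0.05 and 0.68 (mean 0.36, 95% interval 0.06 to 0.65, adjusted p = 0.13). Both intervals leave out 0 without adjustment over genes, and neither adjusted p passed the threshold.

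*PMAIP1* differed between the 3 siRNAs more than any other member. It was -1.12 with siDONSON-1, 0.76 with siDONSON-2 and 0.23 with siDONSON-3, and the first 2 exceeded the software's 95% error limits on opposite sides of 0. The mean of -0.04 ± 0.97 (SD, n = 3) had a 95% interval of -0.74 to 0.66, while *DONSON* itself lay between -1.79 and -2.15 on the same arrays. *BCL2L1* (-0.02, -0.30 and 0.24) and *BID* (-0.20, 0.30 and -0.06) also changed sign between the siRNAs, all within the 95% limits on each array.

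The remaining members were above 0 or near it. *BAK1* gave 0.03, 0.54 and 0.07, of which only the siDONSON-2 value lay outside the 95% limits. *BCL2* gave 0.38, 0.52 and 0.24, with both probes well above background in both channels (adjusted p = 0.338). *BAD* gave 0.10, 0.04 and 0.29 (adjusted p = 0.369), and *BAX* gave 0.02, 0.10 and -0.01 (adjusted p = 0.836). The *BAX* probes went opposite ways, with means of -0.19 at A_23_P208706 and 0.27 at A_33_P3341144. Neither was called alone (limma adjusted p = 0.348 and 0.177). The median over the members was 0.18, beside 0.03 over all genes tested.

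The difference between the replicated groups was tested within the same fit. *BCL2L11* was lower after siDONSON than after *LOXL2* editing by -0.95 on the log2 scale, with a 95% interval of -1.27 to -0.64 and an adjusted p of 0.0102. It was the only member of 10 called, beside 7.29% of 13655 genes. Without A549-GE2 or A549-GE3 the difference was -0.86 or -0.95 and no longer passed (adjusted p = 0.0577 and 0.0518). *MCL1* differed by 0.49 (adjusted p = 0.0717), *PMAIP1* by 0.80 (adjusted p = 0.284) and *BCL2* by -0.67 (adjusted p = 0.236). Treatment and cell line cannot be told apart in this contrast.

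**Figure D3:**
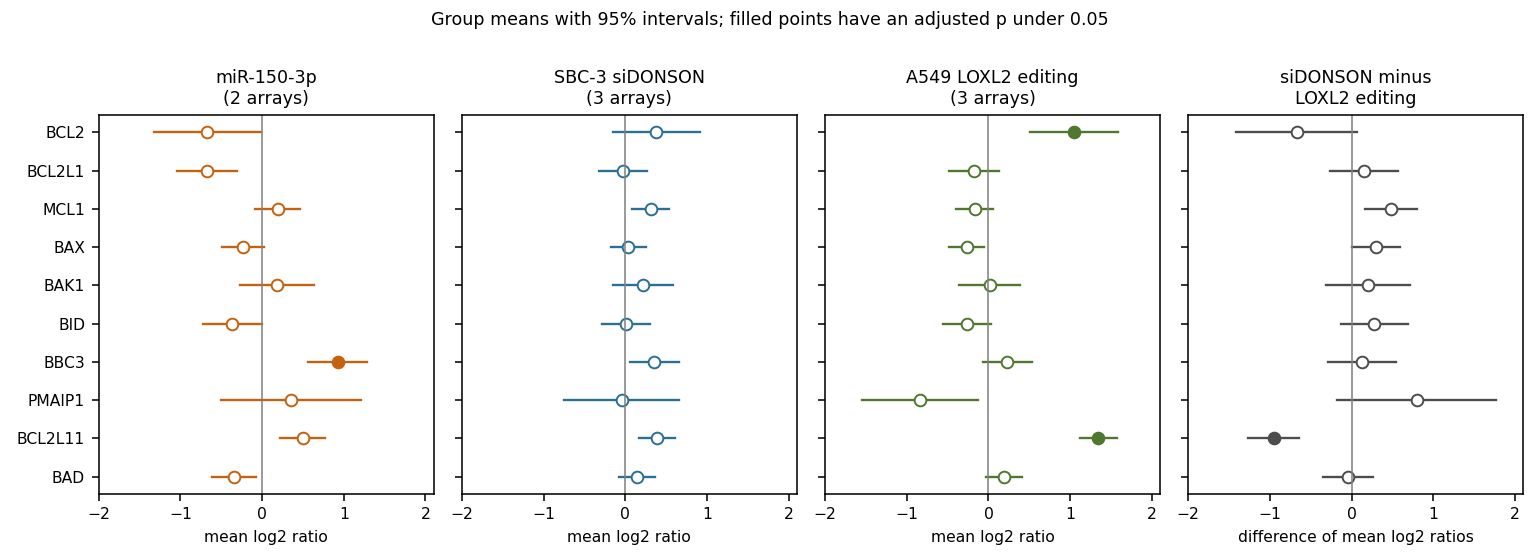
Mean log2 ratio of each gene per treatment with its 95% interval from the limma fit, and at the right the siDONSON mean minus the *LOXL2* editing mean; filled points have an adjusted p under 0.05 over all genes. *BBC3* is filled for *miR-150-3p*, *BCL2L11* and *BCL2* for *LOXL2* editing, and *BCL2L11* for the difference.

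In the LUSQ lines, *miR-150-3p* went with a higher *BBC3* in both. The log2 ratio of *BBC3* was 0.97 in EBC-1, and SK-MES-1 gave 0.89, beyond the software's 95% error limits on each array and above the 0.05 to 0.68 of the 6 other arrays. With the lines taken as 2 samples of the transfection, the mean of 0.93 ± 0.06 (SD, n = 2) is a 1.90-fold increase, with a 95% interval of 0.57 to 1.29 and an adjusted p of 0.0295. It was the only member of 10 called, beside 5.38% of 14229 genes. With 1 array left the value was 0.89 (SK-MES-1 alone, adjusted p = 0.209) or 0.97 (EBC-1 alone, adjusted p = 0.0305), the lone array being taken to vary as the other groups do.

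*BCL2L1*, which encodes BCL-XL, gave -0.48 in EBC-1, and -0.87 was measured for SK-MES-1, both outside the 95% limits and below all 6 other arrays (-0.31 to 0.24). The mean of -0.67 had a 95% interval of -1.04 to -0.31 and an adjusted p of 0.0508, and it passed in 5 of 8 other settings. *BCL2L11* gave 0.42 and 0.58 (mean 0.50, 95% interval 0.23 to 0.77, adjusted p = 0.0522). Its probes ran apart, from -0.08 to 0.84 in EBC-1 and from 0.17 to 1.04 in SK-MES-1. *BAD* gave -0.20 and -0.48 (adjusted p = 0.105), and *BID* gave -0.60 and -0.13 (adjusted p = 0.16).

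On a single array the size limit was a log2 ratio of 1 in either direction, with no test. In EBC-1, 0 members were above 1, beside 5.96% of 14759 genes, and 1 member was below -1, beside 6.04%. That member was *BCL2*, at -1.32, from a single probe whose treated channel was not well above background. The control exceeded the treated RNA by 2.49-fold as measured at this probe, which is no lower bound. With normexp and loess, which change the background correction and the normalization together, the value was -0.10. The offset added to both channels pulls a ratio of such dim signals towards 0, so this value is no check of the fall. In SK-MES-1, 0 of 10 members were above 1 (2.57% of 16176 genes) and 0 below -1 (1.27%), and *BCL2* stood at -0.02, with its control channel not well above background.

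The 2 lines parted at *BAK1*, with 0.57 for EBC-1 and -0.20 for SK-MES-1. Only the former lay outside the 95% limits. *PMAIP1* was 0.52 and 0.19, *MCL1* 0.35 and 0.04, and *BAX* -0.07 and -0.39. In EBC-1, 7 of 10 members lay outside the 95% limits, beside 36.8% of all genes on that array, and in SK-MES-1 4 of 10, beside 14.8%. Genes on an array are not replicates, and no test was made of these counts.

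*BCL2L11* and *BBC3* were above 0 on all 8 arrays, as were 6.48% of the 12862 genes counted on every array. No member was below 0 on all 8, as were 4.85% of those genes. For *BCL2L11* this is the mean of its probes, of which A_33_P3251932 gave -0.08 in EBC-1 and -0.30 with siDONSON-1. The treated RNA was in Cy5 on every array, and a dye bias of a gene cannot be told apart from a shared response to treatment. With the mean of the 5 other arrays subtracted, *BCL2L11* in A549 stood at 0.91 (adjusted p = 0.00876) and *BCL2* at 1.09 (adjusted p = 0.0643). With the mean of the 6 arrays of the other treatments subtracted, *BBC3* stood at 0.68 for EBC-1 and 0.59 for SK-MES-1. In RNA of a whole culture, fewer cells with a transcript and less of it per cell cannot be told apart.

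For the 4 members whose log2 ratio spanned at least 1 over the arrays, the nearest profiles were sought among these 12862 genes by the root mean square difference over 8 arrays. *COL4A1*, a collagen IV chain, at 0.19, and *MFGE8*, a secreted milk fat globule protein, at 0.20, were nearest to *BCL2L11*. *COL4A1* gave 0.996, 1.87 and 1.39 in A549 and 0.38 to 0.61 elsewhere. *NUDCD1* at 0.27 and *YIPF4* at 0.32 were nearest to *PMAIP1*, and *NUDCD1* gave -0.79, 0.61 and 0.36 with the 3 siRNAs. *PICK1* and *SRSF4*, a splicing factor, were nearest to *BCL2L1* (both 0.16), and *DDAH1* and *ZNF571* to *BCL2* (0.31 and 0.35). A *DDAH1* probe gave 2.22, 0.86 and 1.59 in A549, with its control channel not well above background. The other *DDAH1* probe, above background in both channels, gave -0.06, 0.17 and -0.16.

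Other genes of the pathway, 42 in 4 lists, were read from the same fits. In edited A549 cells, 37 were tested, 4 fell and 2 rose, beside the 14.4% of all genes called either way, so that the count is near the background. *BIRC3*, an inhibitor of apoptosis protein, gave -1.05, -1.12 and -1.37 (mean -1.18, adjusted p = 0.0044). *HTRA2*, a mitochondrial protease that antagonizes such inhibitors, gave -0.54, -0.57 and -0.49 (adjusted p = 0.011). These were 2 of 7 tested genes of the list of inhibitors and their antagonists, whose median was -0.27.

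Among the other BCL2 family genes, 2 of 11 tested fell in A549 and 2 rose. *BIK*, a BH3-only gene, gave -1.59, -1.49 and -0.59 (adjusted p = 0.0336), and *BMF*, another BH3-only gene, gave 1.02, 0.62 and 1.35 (adjusted p = 0.0192), with the control channel of its probes well above background on 1 of 3 arrays for 1 probe and on none for the other. The anti-apoptotic *BCL2A1* gave -1.12, -0.90 and -0.81 (adjusted p = 0.00151), the mean of a probe at -1.63 to -2.23 and another at about 0. The other gene that rose, *BNIP3L*, a mitophagy receptor named here after its values were seen, had a mean of 0.60 (adjusted p = 0.0155). The median of this list was 0.03, and neither the 11 tested genes of the apoptosome and caspase list (median 0.0012) nor the 8 of the death receptor list (median -0.10) held a call.

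In SBC-3, 36 of the 42 genes were tested, 0 fell and 2 rose, beside the 7.22% of all genes called. *TNFRSF10B*, the death receptor DR5, gave 0.35, 0.53 and 0.64 (mean 0.51, adjusted p = 0.0246), with both channels well above background. *BCL2L10*, an anti-apoptotic relative of *BCL2*, gave 1.80, 0.77 and 1.62 (adjusted p = 0.0261), but its control channel was not well above background on the 3 arrays and the increase is bounded at at least 1.08-fold.

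With *miR-150-3p*, 5 of 39 measured pathway genes were above 1 in EBC-1, beside 5.96% of all genes, and 2 below -1, beside 6.04%. No test was made of these counts. *BMF* was 1.49, *HRK* 1.04 and *BIK* 1.06, all BH3-only genes, *XAF1*, an antagonist of XIAP, was 1.86, and *TNFSF10*, which encodes the death ligand TRAIL, was 1.41. *BIRC5*, which encodes survivin and is known to follow cell division, was -1.52. *CASP2* was -1.08, the mean of a probe at -1.57 and another at -0.59. In SK-MES-1, *TNFSF10* at 1.19 was the only 1 of 39 past the limit, beside 2.57% of all genes above 1 and 1.27% below -1. *TNFSF10* thus exceeded 1 in both lines. The death receptor list also holds genes that are not receptors, such as *TNFSF10*. Its 9 measured genes had medians of 0.54 (EBC-1) and -0.02 (SK-MES-1), beside 0.05 and 0.02 over all genes.

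In control RNA, *BCL2* was highest in SBC-3. The quantile-normalized log2 Cy3 level of *BCL2* was 7.44 ± 0.12 (SD, n = 3) in SBC-3, 5.12 in EBC-1, 4.44 ± 0.30 (SD, n = 3) in A549 and 4.39 in SK-MES-1. Probe A_23_P352266 was well above background in SBC-3 only, where it exceeded A549 by at least 8.70-fold, EBC-1 by at least 5.88-fold and SK-MES-1 by at least 9.5-fold. At probe A_33_P3355185, EBC-1 exceeded SK-MES-1 by at least 2.41-fold. No *BCL2* probe was well above background on all arrays of A549 or in SK-MES-1, so that no order is given between these lines.

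**Figure D4:**
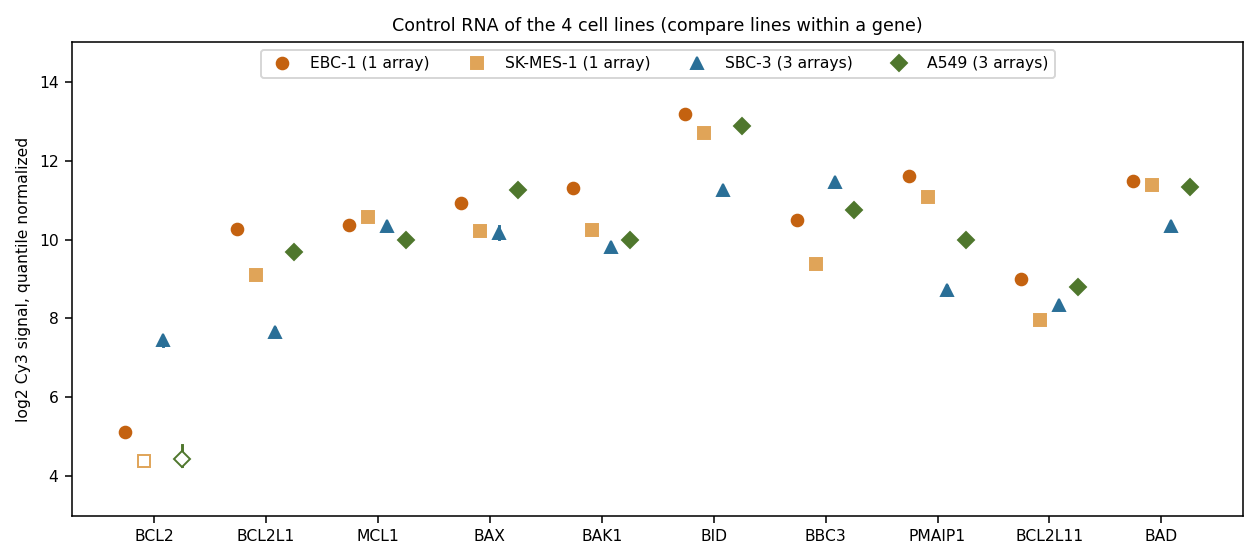
Quantile-normalized log2 Cy3 signal of the 10 genes in control RNA of EBC-1 and SK-MES-1 (1 array each), SBC-3 and A549 (mean of 3 arrays, with a line from the lowest to the highest array), open where no probe was well above background on all arrays of the line. *BCL2*, at 7.44, and *BBC3* are highest in SBC-3, and *BCL2L1*, *BID*, *PMAIP1* and *BAD* are lowest there. *BAK1* and *BAX* are lowest there as well, by 0.17 and 0.05 below the next line.

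The other anti-apoptotic genes ran otherwise. *BCL2L1* was lowest in SBC-3, at 7.66 ± 0.09, against 9.09 in SK-MES-1, 9.69 ± 0.04 in A549 and 10.27 in EBC-1. Neighbours in this order were 1.43, 0.60 and 0.59 apart, and SBC-3 was 4.08-fold below A549 in *BCL2L1*. EBC-1 and SK-MES-1 had 1 control array each and so no spread of their own. *MCL1* varied least, from 9.996 ± 0.11 in A549 to 10.57 in SK-MES-1. In *MCL1*, SK-MES-1 lay 0.20 above EBC-1 and EBC-1 0.03 above SBC-3, given as sizes only because of the single arrays. SBC-3 exceeded A549 by 0.34 (adjusted p = 0.00585).

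Among the BH3-only genes, *BBC3* was highest in SBC-3 (11.46 ± 0.04), followed by A549 (10.75 ± 0.03), EBC-1 (10.50) and SK-MES-1 (9.38), in steps of 0.71, 0.25 and 1.12. *PMAIP1* ran from 11.62 in EBC-1 through 11.09 in SK-MES-1 and 9.997 ± 0.05 in A549 to 8.73 ± 0.12 in SBC-3. *BID* was also lowest in SBC-3 (11.26 ± 0.02) and lay between 12.70 and 13.18 in the other lines. *BAD* was 10.33 ± 0.05 in SBC-3 and 11.32 to 11.50 elsewhere, where neighbours lay 0.12 and 0.06 apart. *BCL2L11* spanned less, from 7.96 in SK-MES-1 to 8.99 in EBC-1.

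Of the effectors, *BAK1* was highest in EBC-1 (11.30) and lay between 9.81 and 10.24 in the other lines. *BAX* was 11.27 ± 0.02 in A549 and 10.17 ± 0.17 in SBC-3, but its probes disagreed. A_33_P3341144 was lower in SBC-3 than in A549 by -2.27 and A_23_P208706, the brighter one, differed by 0.08.

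All 10 members differed between SBC-3 and A549 at an adjusted p under 0.05, beside 81.8% of 16014 genes, so that the count says little about the members. At a difference past 1 on the log2 scale there were 5 of 10, beside 39.6% of genes. The Cy3 channels of a line may be a single RNA labeled several times. Between arrays of SBC-3, log2 Cy3 signals differed with an SD of 0.17 to 0.18 and log2 Cy5 signals with one of 0.36 to 0.49, and in A549 these were 0.14 to 0.15 and 0.15 to 0.19. The differences between lines thus rest on a spread that may leave out that between cultures. In A549 the members that rose after editing, *BCL2L11* and, on dim signals, *BCL2*, started from 8.80 ± 0.02 and from a level near background, respectively.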

How the data were processed

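RNA was measured on 8 Agilent arrays on 1 slide, from a single scan and with no dye swap. The authors deposited the output of Feature Extraction 12.1.1.1, with the intensity of both channels before and after background subtraction and dye normalization, and, for every spot, a log10 ratio (red to green) and its estimated error. A deposited table of the series holds the same log10 ratios. The array design names hg19, and gene names came from matching RefSeq accessions of the probes (24782 of 50096 had a match). Of 60901 noncontrol spots, 81 to 133 an array were marked as outliers and left out, and 0 were saturated. Green was well above background at 41.1% to 46.4% of spots and red at 48.5% to 56.2%. The number of arrays limits the precision.

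Log2 ratios of the processed intensities were averaged over spots of a probe and over the probes of a gene that were well above background in at least 1 channel. limma 3.58.1 (R 4.3.3) fitted 3 treatment groups to all 8 arrays (5 residual degrees of freedom), and group means were tested against 0 with Benjamini-Hochberg adjustment at 0.05. All groups share 1 estimate of the spread. Arrays of 1 line were set against a log2 ratio of 1 and the software's error, with no test. Control levels are log2 green intensities, quantile normalized, with 4 groups by line (4 residual degrees of freedom). Where a probe was not well above background on any array of a group, its signal was raised to the lowest one well above background, or kept if higher. The fold is a bound in the first case and the measured ratio in the second, open to dye bias without swaps. The fit was tested on simulated data.

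The members and the gene lists were chosen with earlier results of these data known. Named were all members, the targeted genes, up to 3 genes per list and treatment with the largest change past the threshold, and for members spanning a log2 ratio of 1 the 2 nearest profiles. Alternatives were normexp (offset 50) with loess, centring on the median, other filters on dim probes, the brightest probe, 4 groups by line, the group alone, leaving out arrays, scaling to the 75th percentile for levels and, chosen after seeing the data, single probes and subtraction of the 5 other arrays. normexp used the median signals, where the plan named mean signals, which were not used here. One result on a cell type marker is not reported here.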

Additional observations from a re-analysis of the deposited data

Results flagged for a closer look

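*BAK1* was marked because the 2 lines transfected with *miR-150-3p* moved in opposite directions, with 0.57 for EBC-1 and -0.20 for SK-MES-1, a difference of 0.78 on the log2 scale. The difference was not tested, as each line has 1 array, and the SK-MES-1 value did not exceed the software's 95% error limits.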

How the results depend on the processing

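No paired analysis was possible because each array holds its own control and each group was tested against 0, and the numbers name different siRNAs and different edited cultures. Of 653 values of single members under alternatives, 572 kept their direction and side of the threshold, 13 lost and 29 gained a call, 37 moved or changed sign without a call and 2 called values reversed. The latter were *BCL2L11* with siDONSON, at -0.62 after subtraction of the 5 other arrays' mean, and *BAX* between SBC-3 and A549 controls, at 0.0776 with the brightest probe.

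For the siDONSON group, genes called numbered 2897 without a filter on dim probes, 26 from the 3 arrays alone and 97 to 1115 with 1 array left out, 97 of them without siDONSON-3. Members called were 3 with normexp and loess (*BBC3*, *BCL2L11* and *MCL1*) and 1 (*BCL2L11*) with both channels required, the brightest probe, 4 groups by line or the 5 other arrays subtracted. For *LOXL2* editing, genes called were 5375 without the filter, 5873 from the 3 arrays alone, 820 with the 5 other arrays subtracted and 470 to 588 with any 1 array left out. Members were 6 from the 3 arrays alone (*BAD*, *BAX*, *BCL2*, *BCL2L11*, *BID* and *PMAIP1*), 3 with normexp and loess (*BAX*, *BCL2L11* and *PMAIP1*) or 4 groups (*BAX*, *BCL2* and *BCL2L11*), 2 with the brightest probe (*BAX* and *BCL2L11*), and 1 (*BCL2L11*) with both channels required, with the 5 other arrays subtracted, or with any array left out.

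For the *miR-150-3p* mean, genes called were 1538 with normexp and loess, 198 without the filter, 2689 with 4 groups, and 1 without EBC-1 to 2972 without SK-MES-1. Members were 2 with median centring, 3 with normexp and loess, with both channels required or with the brightest probe, 4 with 4 groups, 0 without the filter and 0 to 2 with 1 array left out. For siDONSON against *LOXL2* editing, members were 2 with normexp and loess or 4 groups and 0 to 2 with 1 array left out (*PMAIP1* joined without siDONSON-1). Past a log2 ratio of 1 there were 0 members in EBC-1 with normexp and loess or both channels required, and 1 in SK-MES-1 (*BCL2L11*) with the brightest probe. Calls between control levels of SBC-3 and A549 kept within 1.5 times their number. Of the genes called with siDONSON, 55.5% were higher, and 45.4% after centring on the median.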
